A study of Mus musculus with 6 samples.

Results

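The genes that copy the genome and supply its building blocks were followed as 1 group of 49, out of 54525 in the count files. They were chosen by their known function with no measured value in the rule, but with earlier results of these data known. They comprise the subunits of the origin recognition complex (Orc1 to Orc6), the licensing factors and their inhibitors (Cdc6, Cdt1, Gmnn, Dtl), the replicative helicase (Mcm2 to Mcm7) and the factors that activate it (Mcm10, Cdc45, Gins1 to Gins4), the polymerases and primase (Pola1, Pola2, Prim1, Prim2, Pold1 to Pold3, Pole, Pole2), the sliding clamp with its loader and the flap endonuclease (Pcna, Rfc1 to Rfc5, Fen1), the single-strand binding protein RPA (Rpa1 to Rpa3), enzymes of deoxynucleotide synthesis (Rrm1, Rrm2, Rrm2b, Tyms, Tk1, Dut) and the chromatin assembly factor CAF-1 (Chaf1a, Chaf1b). RNA was sequenced from wild-type, untreated C2C12 cells, an established mouse myoblast line that fuses into multinucleated myotubes when serum is lowered. There were 3 libraries from myoblasts at day 0 (D0) and 3 from myotubes after 5 days of differentiation (D5). The growth medium held fetal bovine serum and the differentiation medium horse serum, so the change of medium goes with the change of stage and cannot be told apart from it. The labels do not say whether the 3 samples of a group were grown as separate cultures, so the p-values measure the spread between these samples, which may be technical.

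As background, a cell can copy its DNA only where origins were first licensed: the origin recognition complex binds the DNA, CDC6 and CDT1 join it, and together they load the ring-shaped MCM2-7 helicase, which CDC45 and the GINS complex later switch on. Polymerases then copy each strand behind the helicase, held to the DNA by the PCNA clamp, while ribonucleotide reductase and thymidylate synthase supply deoxynucleotides and CAF-1 puts new nucleosomes behind the fork. Myoblasts leave the cell cycle for good as they form myotubes, and many replication genes are known targets of the E2F transcription factors, which the retinoblastoma protein family holds in check in cells that have left the cycle.

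Counts assigned to genes summed to between 36555048 and 40895840 per library in myoblasts, and to between 25449759 and 25811300 in myotubes. The labelled stages were checked against marker lists: all 6 myotube markers (Myog, Mymk, Myh3, Ckm, Acta1, Tnnt3) were increased at D5. All 6 markers of cycling cells (Mki67, Top2a, Ccnb1, Cdk1, Birc5, Aurkb) were decreased, with a median at 2.98% of the D0 level and a summed level from 1689 to 1704 CPM (counts scaled to a common library size of 1000000) at D0 and from 51.2 to 60.3 at D5. Of 8 markers of undifferentiated muscle cells, 3 were decreased (Pax7, Myf5, Heyl), 4 were increased (Cd34, Vcam1, Sdc4, Spry1) and Chrdl2 had 0 counts in every library. Their summed level ran from 299.7 to 305.8 CPM at D0 and from 441 to 478 at D5, so these markers do not all mark D0. Of 6 markers of blood, endothelial and epithelial cells only Cd68 passed the filter on low counts (log2 fold change -0.50), and the summed level of the list stayed at or under 3.42 CPM in every library. How much of the replication genes' change goes with the loss of cycling cells was not tested, and in bulk RNA fewer cells of a type and less RNA per cell cannot be told apart.

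Most replication and nucleotide synthesis genes had far less RNA in myotubes than in myoblasts. All 49 genes passed the filter on low counts; 47 were decreased and 2, Orc3 and Rrm2b, were increased at an edgeR adjusted p under 0.05. The background was high, since 40.8% of the 16290 genes tested were called lower and 42.2% higher by the same rule. By size, 42 of the 49 had a log2 fold change under -1, against 16% of all genes tested, and 30 had one under -2, against 6.16%. Their median log2 fold change was -2.75, or 14.8% of the D0 level, beside a median of 0.0022 over all genes tested, and 29 of the 49 lay in the lowest 5% of all fold changes. The 49 genes summed to 3494, 3521 and 3504 CPM in the D0 libraries and to 814, 809 and 798 CPM in the D5 libraries. Libraries of a group were close to each other and the groups were far apart. In the D5 libraries every one of the 47 decreased genes lay below all 3 D0 libraries, where 41.1% of all genes tested did so, and the 2 increased genes lay above all 3, as 42.2% of all genes did. With scaling to the ERCC spike-ins, synthetic RNAs added to each sample, 43 of the 47 remained called lower. Orc2, Orc4, Orc6 and Gins4 missed the threshold (edgeR adjusted p from 0.064 for Orc6 to 0.15 for Orc4). Their fitted falls were larger than with TMM (for Orc2 -1.12 against -0.53). The spike-in share of counts ran from 0.720% to 2.09% among the D5 libraries and from 0.726% to 0.859% among the D0 libraries. The standard errors of the log2 fold changes ran from 0.033 to 0.165, and adjusted p-values from 6.6e-34 (Mcm3) to 7.6e-05 (Orc3).

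**Figure D1:**
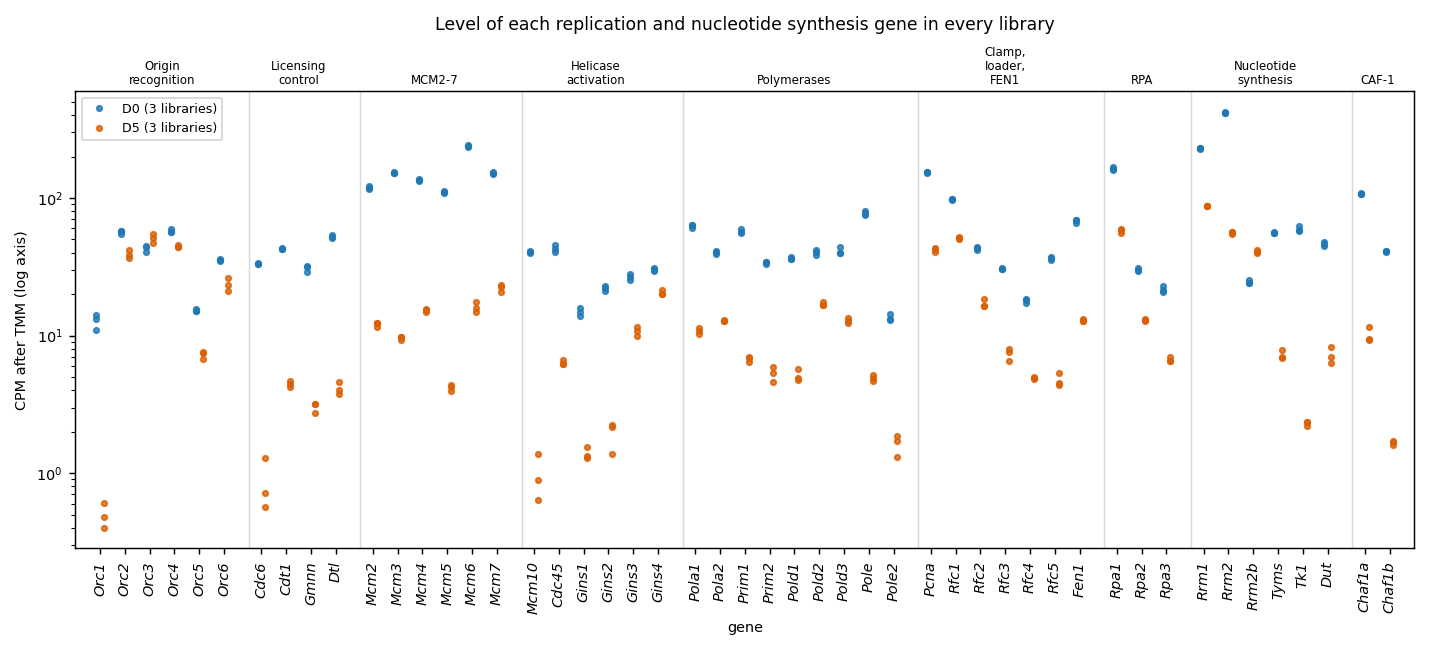
Level of each of the 49 genes in CPM after TMM scaling (log axis) in the 3 D0 libraries (blue) and the 3 D5 libraries (orange), ordered by role. The D5 points lie below the D0 points for 47 genes, and above them for Orc3 and Rrm2b. With unscaled counts, which keep the lower totals of the D5 libraries, the order for Orc3 turns and the groups overlap for Rrm2b.

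The fall was uneven across roles. The median log2 fold change was -0.56 for the 6 origin recognition subunits and -1.49 for the 3 RPA subunits. It was -1.87 for the 7 genes of the clamp, clamp loader and flap endonuclease, -2.68 for the 9 polymerase and primase subunits, and -2.79 for the 6 genes of nucleotide synthesis. It reached -3.08 for the 6 genes of helicase activation and -3.50 for the 4 licensing factors and inhibitors. For the 6 helicase subunits it was -3.59, and for the 2 CAF-1 subunits -4.01. No test was made between roles, since genes of 1 complex are not replicates of a condition. No member of the clamp, RPA or origin groups other than Orc1 fell by more than 3 on the log2 scale. All 4 licensing factors and inhibitors and 5 of the 6 helicase subunits did.

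**Figure D2:**
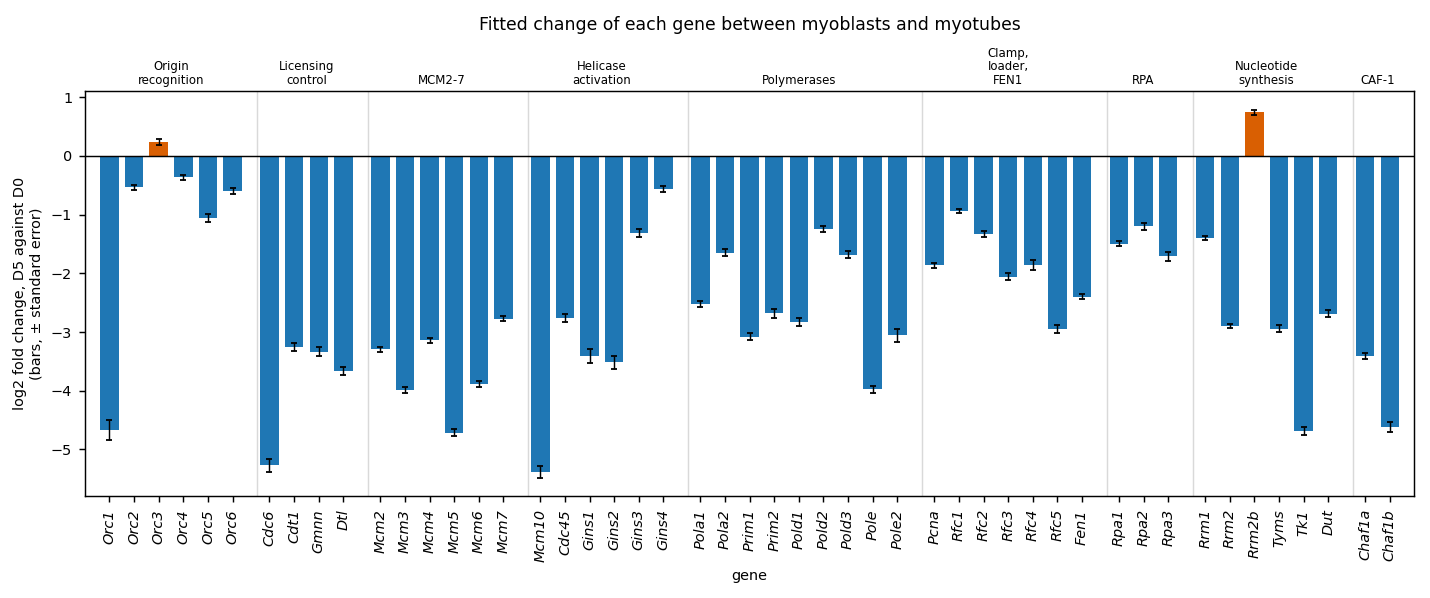
Fitted log2 fold change of each gene at D5 against D0 (edgeR), with bars running from 0 and error lines of ± 1 standard error. Bars reach from -5.38 (Mcm10) to 0.74 (Rrm2b); the bar of Orc3 (0.24) turns to -0.44 when the counts are left unscaled and to -0.29 when they are scaled to the spike-ins.

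Within the origin recognition complex, the ATP-binding ring that marks origins, 1 subunit fell far more than the rest. Orc1 (chromosome 4, 108579423 to 108614833, plus strand, GRCm38), the subunit whose protein is known to come and go with the cell cycle, was at 10.9, 13.2 and 14.0 CPM in the D0 libraries and at 0.478, 0.609 and 0.402 CPM in the D5 libraries. All 3 D5 libraries lay far below all 3 D0 libraries, although they rested on 12, 15 and 10 counts. Its log2 fold change was -4.67 (SE 0.165, adjusted p = 1.5e-21), leaving 3.92% of the D0 level. The other subunits changed less. Orc2 was at 69.1% of its D0 level (log2 fold change -0.53), Orc4 at 77.6% (-0.37), Orc6, the subunit outside the ring, at 66.2% (-0.60) and Orc5 at 48.0% (-1.06), all called lower. Of the exonic bases of Orc2, 29.8% overlap exons of Nif3l1 on the other strand. For Orc1 such overlap was 10.8% (Gm12743), for Orc4 7.80% and for Orc6 6.93%. The strand setting of the counting is not given in the sources used here. Reads of these genes thus cannot be fully told apart from those of their neighbours.

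Orc3 (chromosome 4, 34570796 to 34614944, minus strand), another core subunit, was at 44.2, 44.8 and 40.4 CPM at D0 and at 51.3, 54.3 and 47.0 CPM at D5. The lowest D5 library was above the highest D0 library, by a narrow margin. The increase of 0.24 on the log2 scale (SE 0.050, adjusted p = 7.6e-05) held with TMM, upper-quartile, total-count and DESeq2 scaling but turned to -0.44 (adjusted p = 2.5e-09) with unscaled counts and to -0.29 (adjusted p = 0.69) with spike-in scaling. These 2 scalings also moved the median of all genes to -0.68 and -0.58, and relative to those medians Orc3 stood at 0.24 and 0.29. In TPM, a level that is also corrected for gene length, Orc3 was at 24.5 ± 1.15 (SD, n = 3) at D0 and 25.9 ± 1.86 at D5.

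To compare Orc1 with the other subunits within each library, the TPM of Orc1 was divided by the mean TPM of Orc2 to Orc5. This ratio was 0.399, 0.468 and 0.506 at D0 and 0.0207, 0.0276 and 0.0185 at D5, 20.8-fold lower at D5 with no overlap. An exact two-sided permutation test gave p = 0.1, the smallest that 3 libraries against 3 allow (adjusted p = 0.133 over the 4 ratios computed). The highest subunit by TPM was Orc2 in both stages. It stood 5.96-fold above the lowest at D0, which was Orc5, and 71.1-fold above the lowest at D5, which was Orc1. By CPM, Orc1 was the lowest at both stages (12.7 at D0, 0.496 at D5). The highest by CPM were Orc4 at D0 (57.5) and Orc3 at D5 (50.9).

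**Figure D3:**
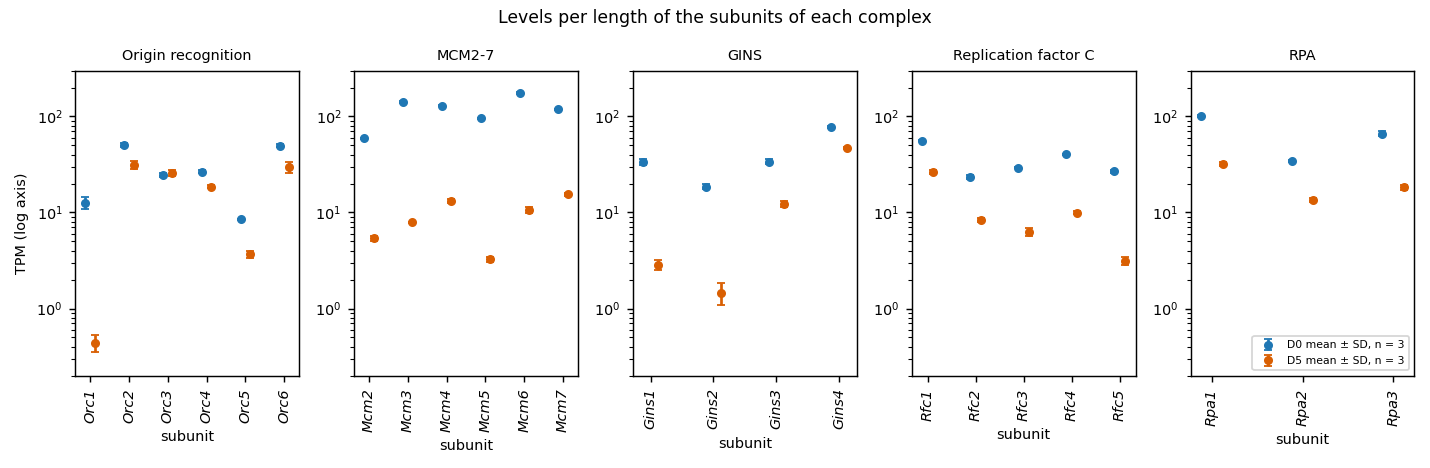
Mean TPM ± SD (n = 3, log axis) of the subunits of 5 complexes at D0 (blue) and D5 (orange). RPA subunits move down side by side, whereas Orc1, Gins1 and Gins2 drop away from the other subunits of their complexes.

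The licensing factors and their inhibitors all fell strongly, Cdc6 most. Cdc6 (chromosome 11, 98907801 to 98923940, plus strand), the ATPase that helps to load the helicase, was at 33.1, 33.6 and 32.9 CPM at D0 and at 0.717, 0.568 and 1.29 CPM at D5. The third D5 library was the highest of its group but still far below every D0 library. The log2 fold change of Cdc6 was -5.27 (SE 0.112, adjusted p = 2.4e-27), or 2.59% of the D0 level. Cdt1, its partner in loading, decreased to 10.4% of D0 (log2 fold change -3.26). Gmnn, which encodes geminin, the inhibitor of CDT1, decreased to 9.92% (-3.33). Dtl, the ubiquitin ligase adaptor that directs CDT1 to degradation in S phase, decreased to 7.92% (-3.66).

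Cdt1 and its inhibitor could be compared within each library. The ratio of Cdt1 to Gmnn in TPM was 0.629, 0.634 and 0.682 at D0 and 0.717, 0.685 and 0.650 at D5. The groups overlapped, with a log2 difference of 0.077 and p = 0.2 in the exact two-sided permutation test (adjusted p = 0.2). With single libraries left out, this log2 difference ran from 0.042 to 0.114.

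All 6 subunits of the MCM2-7 ring decreased, from a median level of 124 TPM at D0, the highest of the 5 complexes compared, to 9.29 TPM at D5. Mcm5 (chromosome 8, 75109569 to 75128439, plus strand) fell most: it was at 112, 110 and 108 CPM at D0 and at 4.38, 4.22 and 3.98 CPM at D5. Replicates were close and the groups far apart. The log2 fold change of Mcm5 was -4.71 (SE 0.058, adjusted p = 1.9e-33), or 3.82% of D0. Mcm3 (log2 fold change -3.99), Mcm6 (-3.89), Mcm2 (-3.30) and Mcm4 (-3.14) followed, and Mcm7 fell least (-2.77, 14.6% of D0). Of the 50-base stretches of Mcm7 transcripts, 16.5% also occur elsewhere, mostly in Gm5487, so part of its counts may be shared with that copy. Exons on the other strand overlap 8.70% of the exonic bases of Mcm7.

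Levels per length spread apart as the complex fell. At D0 the subunits ran from 59.1 ± 0.698 TPM (SD, n = 3) for Mcm2 to 176 ± 5.23 TPM for Mcm6, a 2.97-fold range. At D5 they ran from 3.26 ± 0.205 TPM for Mcm5 to 15.6 ± 0.588 TPM for Mcm7, a 4.78-fold range. The lowest subunit by TPM was thus a different one at each stage. By CPM, which takes no account of length, Mcm5 was the lowest at both (110 at D0, 4.19 at D5). Mcm2 had the longest union exonic length of the 6, 6956 bases.

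The promoter windows of the set were read from RefSeq (GRCm38.p6), as 250 bases before and 50 after each listed start; 40 of the 49 genes had one. The upstream bases of 3 genes are shown, Mcm5 as the largest fall in the ring, Mcm10 as the lowest fitted value of the set, and Mcm6 as a second ring subunit that fell by 3.89 on the log2 scale. They are given 5′ to 3′ on the gene's strand, at chr8:75109259-75109508 (plus) for Mcm5, chr1:128359706-128359955 (minus) for Mcm6 and chr2:5012792-5013041 (minus) for Mcm10, and none overlaps an annotated exon. Capitals mark letters of an E2F site, searched as TTCCCGC or TTGGCGC on both strands.
Mcm5: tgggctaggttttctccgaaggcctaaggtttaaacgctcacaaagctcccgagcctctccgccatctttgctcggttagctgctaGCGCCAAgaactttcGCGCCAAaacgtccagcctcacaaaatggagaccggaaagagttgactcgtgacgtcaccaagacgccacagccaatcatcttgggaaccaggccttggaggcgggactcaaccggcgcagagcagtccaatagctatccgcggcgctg
Mcm6: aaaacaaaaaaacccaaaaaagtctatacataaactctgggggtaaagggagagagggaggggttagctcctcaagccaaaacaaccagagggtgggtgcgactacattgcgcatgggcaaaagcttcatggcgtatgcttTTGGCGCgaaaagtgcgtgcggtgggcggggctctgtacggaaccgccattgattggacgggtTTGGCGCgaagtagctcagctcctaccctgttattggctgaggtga
Mcm10: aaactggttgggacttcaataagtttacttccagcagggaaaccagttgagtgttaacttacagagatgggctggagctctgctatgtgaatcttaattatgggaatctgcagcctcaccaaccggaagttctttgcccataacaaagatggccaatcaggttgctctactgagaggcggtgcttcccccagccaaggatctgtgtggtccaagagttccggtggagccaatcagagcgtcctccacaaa
The Mcm5 sequence holds the reverse complement of TTGGCGC at 164 and at 149 bases before the start, and the Mcm6 sequence holds TTGGCGC at 109 and at 46 bases before it. The Mcm10 sequence holds neither motif.

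Across the 40 windows, 22 (55%) held at least 1 of the E2F motifs, beside 6.93% of all 27025 RefSeq windows of this length and 12.3% of the 10611 windows of genes tested. The letters CCAAT on either strand, whose reverse complement can overlap the first letters of TTGGCGC, were in 60% of the set's windows, 37.9% of all windows and 38.9% of those of genes tested. TTTGAA, the core of the CHR element known from genes of G2 and mitosis, was in 10% of the set's windows, 18.1% of all and 11.9% of those of genes tested. The 22 with E2F letters had a median log2 fold change of -2.80 and the 18 without had -2.54. Orc3 held TTCCCGC at 40 bases before its start. It was called higher with TMM, lower with unscaled counts (-0.44), and in neither direction with spike-in scaling (-0.29, edgeR adjusted p = 0.69). These letter matches are a description of the windows and not of binding.

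Among the factors that turn the loaded ring into a moving helicase, Mcm10 had the lowest fitted log2 fold change of the 49 genes, within about 1 standard error of that of Cdc6, and without D5 replicate 1 both were at -5.15. Mcm10 (chromosome 2, 4989714 to 5012791, minus strand), a scaffold needed to start unwinding, was at 39.8, 40.9 and 40.5 CPM at D0 and at 0.637, 0.893 and 1.37 CPM at D5. The D5 libraries differed among themselves, on 16, 22 and 34 counts, and all lay far below D0. The log2 fold change was -5.38 (SE 0.104, adjusted p = 1.6e-28), or 2.40% of D0. Cdc45, the helicase cofactor, decreased to 14.8% (log2 fold change -2.75).

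The 4 subunits of GINS, the ring-shaped partner of CDC45, fell unequally. Gins1 and Gins2 decreased to 9.42% and 8.73% of D0 (log2 fold changes -3.41 and -3.52), Gins3 to 40.3% (-1.31) and Gins4 to 68.0% (-0.56). By TPM, Gins4 stood 4.18-fold above Gins2 at D0 and 32.6-fold above it at D5. Of the exonic bases of Gins2, 67.3% overlap exons of Gse1 on the other strand, so its counts are uncertain in the same way as those of Orc2.

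All 9 genes of the polymerases and primase decreased, from 6.36% to 42.1% of D0. Pole (chromosome 5, 110286306 to 110337474, plus strand), the catalytic subunit of the leading-strand polymerase, was at 74.9, 77.9 and 79.9 CPM at D0 and at 4.94, 5.15 and 4.70 CPM at D5. The groups did not overlap. Pole had a log2 fold change of -3.98 (SE 0.061, adjusted p = 4.4e-31). Pole2, its accessory subunit, had -3.06. The primase genes, which encode the enzyme that lays down the RNA primers, had -3.08 (Prim1) and -2.68 (Prim2), and the polymerase alpha genes, which extend those primers, had -2.52 (Pola1, catalytic) and -1.65 (Pola2). In polymerase delta, which copies the lagging strand, the catalytic subunit Pold1 fell by 2.83 on the log2 scale, whereas the accessory subunits Pold3 and Pold2 fell by 1.68 and 1.25. Setting aside the primase genes, which fell more than Pola1, the catalytic subunit fell more in each of polymerases alpha, delta and epsilon. Differences between subunits were not tested.

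The clamp, its loader and the flap endonuclease decreased less. Rfc5 (chromosome 5, 117378103 to 117389047, minus strand), a small subunit of the clamp loader, was at 35.6, 36.6 and 37.2 CPM at D0 and at 4.50, 5.36 and 4.34 CPM at D5, with no overlap. The log2 fold change of -2.95 (SE 0.071, adjusted p = 6.0e-26) was the largest of this group. The other small subunits had -2.05 (Rfc3), -1.86 (Rfc4) and -1.33 (Rfc2), and Rfc1, the large subunit, had -0.94. Exons on the other strand overlap 10.7% of the exonic bases of Rfc5 (Wsb2), 12.7% of Rfc4 (Eif4a2) and 15.1% of Rfc2 (Lat2). The range of loader subunits by TPM widened from 2.38-fold at D0 to 8.37-fold at D5, with Rfc1 the highest at both stages. By CPM, Rfc1 was also the highest (97.8 at D0, 51.0 at D5). The lowest by CPM were Rfc4 at D0 (17.9) and Rfc5 at D5 (4.73).

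Pcna, the sliding clamp that also serves in DNA repair, kept more of its RNA than most of the set. It was at 155, 153 and 153 CPM at D0 and at 40.4, 43.5 and 42.4 CPM at D5, a log2 fold change of -1.87 (SE 0.038, adjusted p = 7.8e-28). At D5 it was the second most abundant of the 49 genes by TPM (54.4 ± 0.953, SD, n = 3), after Rrm2. This rank rests on the correction for length. By CPM, Pcna (42.1) stood below Rrm1 (87.6), Rpa1 (57.9), Rrm2 (55.7), Rfc1 (51.0), Orc3 (50.9) and Orc4 (44.6) at D5. Of its 50-base stretches, 19.1% also occur elsewhere, mostly in the copy Pcna-ps2. Fen1, which trims the flaps between Okazaki fragments, had a log2 fold change of -2.39, but 84.2% of its exonic bases overlap genes on the other strand.

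RPA, which coats single-stranded DNA in replication and in repair, decreased in all 3 subunits. Rpa3 (chromosome 6, 8255936 to 8259173, minus strand), the smallest subunit, was at 21.6, 23.1 and 20.8 CPM at D0 and at 6.97, 6.49 and 6.55 CPM at D5, with no overlap between groups. Its log2 fold change was -1.71 (SE 0.072, adjusted p = 1.5e-19), beside -1.49 for Rpa1 and -1.20 for Rpa2. The range between subunits by TPM was 2.92-fold at D0 and 2.39-fold at D5, the only 1 of the 5 complexes compared in which it did not widen. This rests on the correction for length. By CPM, Rpa1 was the highest (163 at D0, 57.9 at D5) and Rpa3 the lowest (21.8 and 6.67). Since Rpa3 fell more than Rpa1, the range by CPM did widen. For Rpa3, 9.48% of 50-base stretches also occur elsewhere.

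The enzymes of deoxynucleotide synthesis decreased, with 1 exception. Tk1 (chromosome 11, 117815526 to 117826092, minus strand), the cytosolic thymidine kinase of dividing cells, was at 58.3, 57.8 and 62.0 CPM at D0 and at 2.35, 2.35 and 2.21 CPM at D5. The D5 libraries were nearly equal and all far below D0. Its log2 fold change was -4.69 (SE 0.074, adjusted p = 9.0e-31), or 3.89% of D0. Tyms, the thymidylate synthase, fell by 2.95 on the log2 scale, and Dut, which removes dUTP, by 2.68. Ribonucleotide reductase makes deoxynucleotides from ribonucleotides. Its large subunit Rrm1 decreased to 38.0% of D0 (log2 fold change -1.39), from 230 ± 2.55 to 87.6 ± 0.375 CPM (SD, n = 3). Rrm2, the small subunit of S phase, decreased from 416 ± 4.65 to 55.7 ± 0.945 CPM (SD, n = 3, log2 fold change -2.90). Rrm2 was the most abundant of the 49 genes by TPM at both stages, whereas Rrm1 was the highest by CPM at D5. TPM divided by union exonic length, 2771 bases for Rrm2 and 11012 for Rrm1.

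Rrm2b (chromosome 15, 37923952 to 37961318, minus strand), the alternative small subunit that is known as a p53 target and serves cells outside S phase, was at 25.2, 24.1 and 24.0 CPM at D0 and at 41.8, 39.8 and 40.7 CPM at D5. Every D5 library was above every D0 library. The increase to 167% of D0 (log2 fold change 0.74, SE 0.047, adjusted p = 5.2e-15) was the largest of the set with TMM; it shrank to 0.06 (adjusted p = 0.46) with unscaled counts and to 0.17 (adjusted p = 0.82) with spike-in scaling. Relative to the median of all genes under those scalings it was 0.74 and 0.75. Exons of Gm49085 on the other strand overlap 8.04% of the exonic bases of Rrm2b.

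Ratios within a library do not depend on the scaling between libraries. The ratio of Rrm2 to Rrm2b in TPM was 53.8, 56.9 and 57.9 at D0 and 4.43, 4.67 and 4.43 at D5, so Rrm2 was still the higher of the pair in myotubes but 12.5-fold less so (exact two-sided permutation p = 0.1, the smallest possible; adjusted p = 0.133). The ratio of Tk1 to Tk2, the mitochondrial thymidine kinase, was 4.84, 4.10 and 5.20 at D0 and 0.164, 0.143 and 0.168 at D5. Tk1 was thus the higher of these at D0 and Tk2 at D5, a 29.7-fold change of the ratio (exact p = 0.1, adjusted p = 0.133).

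**Figure D4:**
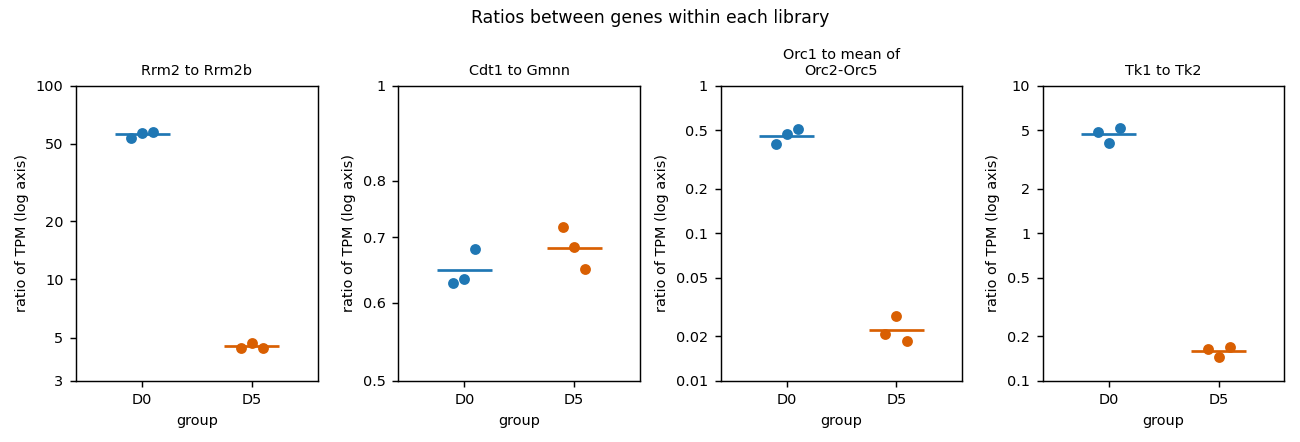
Ratio of TPM between genes in each library (points, log axes that differ between panels) with the mean of the logs (line), for 3 D0 and 3 D5 libraries. The groups are far apart for Rrm2 to Rrm2b, Orc1 to the mean of Orc2 to Orc5 and Tk1 to Tk2, and overlap for Cdt1 to Gmnn.

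Both subunits measured of CAF-1, the chaperone that PCNA brings to new DNA to deposit histones, decreased. Chaf1b (chromosome 16, 93883901 to 93906115, plus strand) was at 40.9, 40.3 and 41.3 CPM at D0 and at 1.67, 1.70 and 1.61 CPM at D5. Replicates were close and the groups did not overlap. For Chaf1b the log2 fold change was -4.62 (SE 0.081, adjusted p = 1.5e-29), or 4.08% of D0. Chaf1a, the large subunit, decreased to 9.40% (log2 fold change -3.41), with 52.5% of its exonic bases overlapping Ubxn6 on the other strand.

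By level per length, the order of the genes changed between the stages. This order rests on union exonic lengths, and by CPM Rrm1 (87.6) was the highest at D5. At D0 Rrm2 (519 ± 13.7 TPM, SD, n = 3) was followed by Pcna (221 ± 2.01), Mcm6 (176 ± 5.23) and Mcm3 (140 ± 3.09), and the spreads of neighbours in this order did not meet. At D5 Rrm2 (62.4 ± 1.76) and Pcna were followed by Gins4 (47.3 ± 1.22), Rpa1 (32.2 ± 1.76), Orc2 (31.4 ± 2.85) and Orc6 (29.5 ± 3.69), of which the last 3 do not differ beyond their spread. The lowest at D5 were Mcm10 (0.388 ± 0.145), Orc1 (0.442 ± 0.089) and Cdc6 (0.508 ± 0.223), whose spreads also meet.

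Genes of neighbouring pathways gave a graded picture. As background for the counts in each list, 40.8% of all genes tested were called lower and 42.2% higher with TMM. Of 30 other replication genes, 26 decreased, 2 increased and 2 were not called, with a median log2 fold change of -2.50. The largest falls were those of Ticrr (-5.27), which helps CDC45 to join the helicase, Dscc1 (-4.83), of an alternative clamp loader, and Clspn (-4.75), of the replication checkpoint. Pold4, the smallest subunit of polymerase delta, increased with TMM (0.90), as did Rnaseh2a (0.21), the catalytic subunit of ribonuclease H2; of these rises 1 remained called with unscaled counts and 0 with spike-in scaling. Of 9 other genes of deoxynucleotide supply, 7 decreased and 2 increased (median -0.85). Dck (-3.24), a salvage kinase, and Dctd (-2.07), the dCMP deaminase, were among those that fell. Slc29a1, a nucleoside transporter, increased (1.82). Samhd1, which breaks down deoxynucleotides, had a small rise (0.12, edgeR adjusted p = 0.022), and its libraries overlapped between groups. Of these 2 rises 1 was called with total-count, unscaled or spike-in scaling.

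Synthesis of purines and pyrimidines, which also serves RNA, changed less. Of 18 genes of the de novo pathways, 14 decreased and 4 increased, with a median log2 fold change of -0.36. Among all genes tested, 40.8% were called lower and 42.2% higher. Pfas (-2.05), Adss (-2.01) and Ctps (-1.47) fell most. Adssl1, the muscle form of adenylosuccinate synthase, went from 6.61 ± 0.0989 to 125 ± 2.81 CPM (mean ± SD of 3 libraries; log2 fold change 4.24), while its counterpart Adss went from 156 ± 1.28 to 38.8 ± 3.72 CPM. Adsl (0.31) and Ctps2 (0.26) increased with TMM, but 1 of the 4 rises in this list was called with unscaled counts or with spike-in scaling.

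Genes that copy mitochondrial DNA changed by little with TMM. Of 11, 2 decreased (Primpol -0.30, Polg -0.29), 6 increased and 3 were not called, with a median log2 fold change of 0.13. Among all genes tested, 40.8% were called lower and 42.2% higher. Libraries of the 2 groups overlapped for 4 of the 11, among them Primpol and Polg2, and for 2713 of the 16290 genes tested. The largest rises were those of Twnk, the mitochondrial helicase (0.38), Polg2, the accessory subunit of the mitochondrial polymerase (0.26), and Tfam (0.22), which packages mitochondrial DNA. These small directions rest on the scaling. With unscaled counts, which keep the lower totals of the D5 libraries, 11 were called lower and 0 higher. The median of all genes was then -0.68, and 10953 of the 16290 genes tested were called lower. With spike-in scaling 0 were called in either direction.

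**Figure D5:**
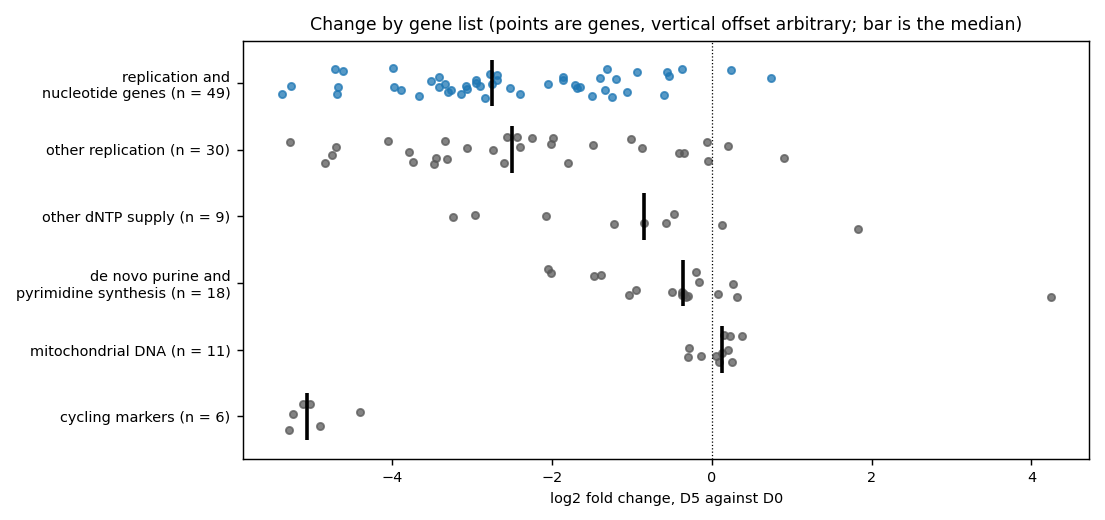
Log2 fold change at D5 against D0 of each gene (points) by list, with the median as a black bar; 0 is dotted. Medians run from -2.75 for the 49 replication and nucleotide genes and -2.50 for other replication genes to 0.13 for mitochondrial DNA genes. The cycling markers have -5.07. Of the mitochondrial DNA genes, all but Mgme1, Polg and Primpol lie above 0 with TMM. All 11 are called lower with unscaled counts, which keep the lower totals of the D5 libraries, as are 10953 of the 16290 genes tested.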

How the data were processed

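The authors aligned reads of 6 C2C12 libraries to GRCm38 (mm10); the deposited counts are raw whole numbers per gene from featureCounts, without normalization, and the submitters' notes also name DESeq2 1.6.3. The labels and the paper name different aligners, and the annotation release and strand setting are not given in the sources used here. In each library 92 ERCC spike-in rows (0.720% to 2.09% of counts) and an unnamed row equal to the column total were left out.

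Genes were filtered with filterByExpr, scaled with TMM and tested with the quasi-likelihood test of edgeR 4.0.16 (R 4.3.3), with Benjamini-Hochberg adjustment over 16290 genes; the standard error is the fold change divided by the root of F. TPM used union exonic lengths of GENCODE M21, which held 54488 of the 54525 identifiers. Ratios were tested with exact permutation tests (scipy 1.17.1). Scripts were tested on simulated data. Replicates differed beyond sampling noise (chi-square per degree of freedom 2.28 to 3.71). Alternatives were other scalings and filters, DESeq2 1.42.0, each library left out and a replicate block.

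The 49 genes and all lists were chosen with earlier results of these data known. Values in every library are given for the gene that fell most in each role and for those not called lower; in other lists the 3 largest falls and rises called are named, except 1 that is not reported here. Pcna and Rrm2 were singled out after their values were seen, as was the Mcm6 promoter, shown in place of that of Mcm7, which lies within annotated exons; Rrm2b had no window listed.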

Additional observations from a re-analysis of the deposited data

How the results depend on the processing

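The 47 decreased genes stayed called lower under each alternative except scaling to the spike-ins, where Orc2 (-1.12), Orc4 (-0.94), Orc6 (-1.19) and Gins4 (-1.11) were lower without passing the threshold. With unscaled counts and with spike-in scaling 0 genes of the set were called higher, and Orc3 reversed to -0.44 and -0.29. The number of set genes whose D5 libraries all lay above D0 went from 2 to 1 with total counts and to 0 with unscaled counts and with spike-in scaling. The median log2 fold change of the 49 genes was -2.84 with total counts, -3.44 with unscaled counts and -3.33 with spike-in scaling, and -2.76, -2.76 and -2.75 relative to the median of all genes. Unscaled counts, which keep the lower totals of the D5 libraries, gave 10953 genes lower and 3353 higher (76.6% of calls lower, 49.2% with TMM). Spike-in scaling gave 5559 calls, 3746 lower and 1813 higher (67.4%). The spike-in share itself ran from 0.726% to 0.859% of counts at D0 and from 0.720% to 2.09% at D5.

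In the other lists, the genes called higher with total counts, unscaled counts, spike-in scaling and no filter were 1, 1, 1 and 1 for deoxynucleotide supply (2 with TMM) and 2, 0, 0 and 2 for mitochondrial DNA (6 with TMM, 3 with DESeq2), where 11 were lower unscaled and 0 with spike-ins. Other replication genes called higher were 1 unscaled and 0 with spike-ins; purine and pyrimidine genes called higher were 1 and 1, with 6 lower with spike-ins. With 1 library left out, deoxynucleotide supply ran from 1 to 2 higher, and mitochondrial DNA from 3 to 6 higher and from 1 to 2 lower: mitochondrial rises came to 3 when D0 replicate 1, D0 replicate 3 or D5 replicate 2 was dropped (the last also leaving 1 lower), and supply rises to 1 when D0 replicate 1 or any of D5 replicates 1 and 3 was dropped. The cause was not tested.

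The labels do not say whether the replicate numbers shared by the groups pair the samples. Correlations of same-numbered deviations were 0.033, 0.064 and 0.028, and each library correlated best with its own number. Such small values do not settle whether the samples are paired. A replicate block gave 13558 called genes against 13510 and changed no call in the set. Depth limits the precision of Orc1, Cdc6 and Mcm10 at D5, which had from 10 to 34 counts.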
